A study of Mus musculus with 12 samples.

Results

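The fraction-dependent change after 24 h of sorbitol is, for each gene, the log2 change from 0 to 24 h in tbGFP-positive cells minus the same change in tbGFP-negative cells. It asks whether both sorted fractions moved alike. A negative value means that tbGFP-negative cells gained more, or lost less, than tbGFP-positive cells, and a positive value means the opposite. Genes were chosen on counts alone: a gene needed at least 10 counts in each of the 4 libraries of at least 1 fraction. Of 55266 genes with summed counts, 11297 passed. The 8494 genes with a mean of at least 5 CPM (counts scaled to library size) in tbGFP-negative cells at 0 h are called baseline-expressed here and are described apart from the other 2803, whose gap at 0 h is a ratio to a level near 0. The level has no natural gap at that limit: 605 tested genes lay between 5 and 6 CPM and 640 between 4 and 5 CPM.

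The cells were E14, a mouse embryonic stem cell line, with the genotype 2C::3xtbGFP, a turboGFP reporter of the 2-cell-like state. All groups were grown on gelatin with fetal calf serum and LIF, were passaged and plated without the kinase inhibitors CHIR99021 and PD0325901 that had been used for expansion, and were collected after 48 h of culture. The groups used here differ in sorbitol, given for 0 or 24 h; it is a sugar alcohol, and adding it makes the medium hyperosmotic. A sort on tbGFP then separated positive from negative cells, 50000 per sample, which gave 4 groups of 2 libraries: t0_tbGFPneg, t0_tbGFPpos, t24_tbGFPneg and t24_tbGFPpos. No group kept for 24 h without sorbitol was analysed here, so sorbitol and other differences between the 0 h and 24 h collections cannot be told apart. The sort followed the culture, so a cell in 1 fraction at 24 h may have been in the other fraction before. Whether the cells are 1 clone, and whether the 2 libraries of a group came from separate cultures, is not stated, so p-values measure the spread between these libraries, which may be technical.

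A few cells in cultures of mouse embryonic stem cells pass at any time into a transient state that resembles the 2-cell embryo. In this state the transcription factor Dux switches on genes of the first wave of embryonic transcription, among them the Zscan4 cluster, the Usp17l deubiquitinases, the Tdpoz and Tcstv families and MERVL retroviral elements, and a reporter of this program marks the cells. Hypertonic medium draws water from any cell, which then takes up or makes compatible osmolytes such as inositol, sorbitol and taurine and switches on chaperones and stress kinases.

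The 8 libraries held 2306870 to 7900178 counts, with the shallowest in t0_tbGFPneg replicate 1. Libraries of 1 group differed beyond sampling noise, with a chi-square of 6.22 to 23 per gene, largest between the 2 t0_tbGFPpos libraries. The fractions differed in the marker genes of the sort: the 58 listed genes of the 2-cell program summed to 84300 and 94600 CPM in tbGFP-positive and to 95.9 and 135 CPM in tbGFP-negative cells at 0 h. At 24 h the sums were 67000 and 64300 CPM against 1750 and 1680 CPM. The list was chosen with earlier results of these data known, so it is no separate check of the sort. The pluripotency genes Pou5f1 and Sox2 had at least 1278 counts in every library. Of the markers of other cell types that were counted singly, Gata4 had 0 counts in all 8 libraries, Sox17 0 to 2, Cdx2 0 to 22 and Col3a1 0 to 6, whereas Sox1 had 13 to 66, Col1a1 4 to 67 and Gata6 4 to 32. Eomes had the highest count, with 3 to 10 at 0 h and 42 to 83 at 24 h. Summed over each list, the 16 primitive endoderm markers ran from 207 to 273 CPM at 0 h and from 323 to 397 CPM at 24 h, the 15 trophectoderm markers from 230 to 438 and from 330 to 382 CPM, the 19 mesoderm and ectoderm markers from 83.8 to 163 and from 83.6 to 163 CPM, and the 14 fibroblast markers from 70.4 to 91.3 and from 75.5 to 80.5 CPM. The 16 germline markers ran from 395 to 419 CPM at 0 h and 503 to 524 CPM at 24 h in tbGFP-negative cells, and from 756 to 869 and then 1100 to 1520 CPM in tbGFP-positive cells. Of 21 tested members of these 5 lists, 0 passed the test of fraction-dependent change by edgeR (4 at an unadjusted p under 0.05, 2 by DESeq2), and the part of such cells in the results was not tested.

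Fraction-dependent change was mostly a gain in tbGFP-negative cells that tbGFP-positive cells did not share. Among the 8494 baseline-expressed genes, 37 had a negative value (0.436% of those tested) and 18 a positive one (0.212%), at an adjusted p under 0.05 by edgeR's quasi-likelihood F test. In the 37, the median change was 1.84 on the log2 scale in tbGFP-negative and -0.12 in tbGFP-positive cells. Of these 37 genes, 35 rose in tbGFP-negative cells, and in tbGFP-positive cells 5 rose, 3 fell and 29 passed in neither direction. At 0 h all 37 were higher in the tbGFP-positive fraction, so each of these gaps narrowed. Over all 11297 tested genes, 2251 had a called gap at 0 h, in either direction. The gap at 0 h is a term of the value that called the 37, and 3 of them passed the count filter through tbGFP-positive cells alone. Their count thus describes the set and supports nothing further. In the 18 positive genes the median change was -1.37 in tbGFP-negative and 0.05 in tbGFP-positive cells. Of these, 14 fell in tbGFP-negative cells, 3 passed in neither direction there and 1 rose.

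Over all 11297 genes, 19 were called positive (0.168%) and 249 negative (2.2%). The median fraction-dependent change was -0.03 over all genes, 0.06 over baseline-expressed genes and -0.78 over the others. The arms behind it were unequal in calls: in tbGFP-negative cells 979 genes rose (8.67%) and 660 fell (5.84%), whereas in tbGFP-positive cells 292 rose (2.58%) and 275 fell (2.43%). Of the tested genes, 2075 passed the count filter through tbGFP-positive cells alone and 1083 through tbGFP-negative cells alone. A gene near 0 in tbGFP-negative cells at 0 h can hardly fall there, so these counts describe the genes tested. Positive calls depended on single libraries. Their number over all genes was 3 without t0_tbGFPneg replicate 1, 1 without t0_tbGFPneg replicate 2, 7 and 1 without t24_tbGFPneg replicates 1 and 2, 11 and 5 without t24_tbGFPpos replicates 1 and 2, and 441 and 47 without t0_tbGFPpos replicates 1 and 2. Negative calls ranged from 95 to 493 under the same omissions, with 95 without t0_tbGFPneg replicate 2 and 493 without t0_tbGFPpos replicate 1.

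The Zscan4 cluster, whose proteins carry a SCAN domain and zinc fingers and lengthen telomeres in embryonic stem cells, held the largest narrowing gaps of baseline-expressed genes. Zscan4d stood at 5.24 and 9.77 CPM in tbGFP-negative cells at 0 h and at 244 and 214 CPM at 24 h. In tbGFP-positive cells it fell from 18900 and 20500 CPM to 9620 and 10900 CPM. The gap closed from both sides but the fractions remained far apart, with a log2 gap of 11.22 at 0 h and 5.49 at 24 h and no overlap at either time. The fraction-dependent change was -5.73 ± 0.25 (log2, SE), with an adjusted p of 2.79e-08 by edgeR's quasi-likelihood F test. Zscan4c went from 4.43 and 13.3 to 216 and 206 CPM in tbGFP-negative cells, against 11600 and 12700 and then 8070 and 8130 CPM in tbGFP-positive cells. Its value was -4.96 ± 0.36 (adjusted p = 2.59e-05), and its fall in tbGFP-positive cells of 0.58 on the log2 scale missed the threshold (adjusted p = 0.176).

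Values of other members ran alongside: -5.41 for Zscan4a, -5.39 for Zscan4-ps3 and -4.98 for Zscan4-ps2, all on the log2 scale and all called. GENCODE types Zscan4a as an unprocessed pseudogene and Zscan4-ps2 and Zscan4-ps3 as protein-coding. Gm5662 and Gm2016, genes of the same program on chromosome 12, had -5.02 and -4.57. Zscan4a, Zscan4-ps3 and Gm2016 passed the count filter through tbGFP-positive cells alone, with 8, 6 and 8 counts in t0_tbGFPneg replicate 1, so their calls are a description and support nothing further. Of these 7 genes, Zscan4d and Zscan4-ps2 fell in tbGFP-positive cells, and the other 5 did not pass there. The 7 lay just above the 5 CPM limit, with means in tbGFP-negative cells at 0 h from 5.34 CPM (Gm2016) to 8.87 CPM (Zscan4c). Their gaps at 0 h are thus also ratios to a low level, and all 7 would drop out at a limit of 10 CPM. Reads from near-identical copies may have been split or left out by the counting, so the values of single Zscan4 copies are uncertain. In bulk samples, a rise of this kind in tbGFP-negative cells cannot tell more cells that carry the transcripts from more RNA in each.

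The windows around the start sites of Zscan4d and Zscan4c are printed because these genes moved together. Each runs from 250 bases before to 50 bases after the annotated start, from RefSeq on GRCm38.p6, 5′ to 3′ on the strand of the gene, and capitals mark a TATAAA match on either strand. Zscan4d lies at chr7:11166099-11166398 (minus strand) and Zscan4c at chr7:11005495-11005794 (plus strand).
Zscan4d: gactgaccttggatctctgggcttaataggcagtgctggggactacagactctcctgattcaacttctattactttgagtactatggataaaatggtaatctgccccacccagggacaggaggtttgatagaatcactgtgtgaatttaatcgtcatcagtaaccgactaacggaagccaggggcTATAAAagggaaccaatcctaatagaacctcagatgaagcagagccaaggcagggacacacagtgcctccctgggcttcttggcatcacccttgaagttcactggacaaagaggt
Zscan4c: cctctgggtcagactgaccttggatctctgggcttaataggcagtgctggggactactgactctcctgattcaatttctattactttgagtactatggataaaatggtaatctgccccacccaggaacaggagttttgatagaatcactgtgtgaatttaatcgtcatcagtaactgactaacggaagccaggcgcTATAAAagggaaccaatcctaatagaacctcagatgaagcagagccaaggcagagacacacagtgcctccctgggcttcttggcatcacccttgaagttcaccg
Over 289 positions aligned without gaps, 281 were identical (97.2%), and the TATAAA match starts at position -65 of Zscan4d and at -54 of Zscan4c, counted from the annotated start. TATAAA, the TATA box letters, is held by 13.6% of all 32851 windows of this length and by 7.49% of the 8086 windows of tested genes. Of the 37 baseline-expressed negative genes, 25 had windows, 30 in number, of which 7 held it, and 3 of 13 windows of the positive genes did.

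Over the whole list of the 2-cell program, 47 of 58 genes were tested, and 32 were called negative and 0 positive by edgeR's quasi-likelihood F test, against 2.2% of all tested genes called negative. In the positive direction there were also 0 at an unadjusted p under 0.05 and 0 by DESeq2. Only 1 of the 47 had a positive sign. The reporter of the sort belongs to this program, and 40 of the 47 genes entered through the counts of tbGFP-positive cells alone, so these counts describe the list and support nothing further. The median change was 4.58 in tbGFP-negative and -0.15 in tbGFP-positive cells, where 35 genes rose in the former, and 4 rose and 6 fell in the latter. The median fraction-dependent change was -4.72, and -4.14 when the 19 genes with no count in tbGFP-negative cells at 0 h were placed at their bound. Summed over the list, tbGFP-negative cells went from 95.9 and 135 to 1750 and 1680 CPM, and tbGFP-positive cells from 84300 and 94600 to 67000 and 64300 CPM.

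Dux, the factor at the head of the program, is annotated as Duxf3 and had 2 counts in both t0_tbGFPneg libraries together and 20 at 24 h, a ratio of 6.36 with a 95% counting interval from 1.54 to 56.1. Its fitted rise there did not pass (log2 change 2.54 ± 0.85, adjusted p = 0.0634 by edgeR). In tbGFP-positive cells Dux fell from 125 and 81.7 to 50.8 and 44.1 CPM (log2 change -1.13 ± 0.27, adjusted p = 0.0337 by edgeR). The fraction-dependent change of Dux was -3.67 ± 0.86 (adjusted p = 0.042 by edgeR), a call lost in 6 of 18 alternatives. Tdpoz3, of a family of speckle-type POZ proteins, had 0 counts in tbGFP-negative cells at 0 h and 638 at 24 h, at least 135-fold higher when the group's floor is set at 3 counts. It also rose in tbGFP-positive cells, from 810 and 889 to 2590 and 1740 CPM (log2 change 1.35 ± 0.17, adjusted p = 0.00122 by edgeR), as did Tdpoz4 (0.96 ± 0.16, adjusted p = 0.00421) and the arginase Arg2 (0.78 ± 0.20, adjusted p = 0.0416). Usp17lc, a deubiquitinase gene, went from 0 to 143 counts in tbGFP-negative cells (at least 30.3-fold higher) and stayed between 371 and 449 CPM in all 4 tbGFP-positive libraries. Counting intervals and bounds cover counting error only. Zfp352, another gene of this program, had 0 and then 17 counts in tbGFP-negative cells (at least 3.60-fold higher), and its fraction-dependent change missed the threshold (adjusted p = 0.124).

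Among the 2803 tested genes below 5 CPM, 212 were called negative (7.56%) and 1 positive (0.0357%). Of the 212, 207 entered through tbGFP-positive cells alone, and all 212 started higher in the tbGFP-positive fraction, so their number is a description of where the gaps were and not support for a change. In tbGFP-negative cells at 0 h, 70 had no counts over the group, 43 had 1 to 3 and 99 had more. In tbGFP-negative cells 208 rose, and in tbGFP-positive cells 11 rose, 30 fell and 171 passed in neither direction. Protein-coding genes made up 95 of the 212 (44.8%), against 72.7% of all tested genes, pseudogenes 66 (31.1% against 14.4%) and long noncoding or unclassified transcripts 51 (24.1% against 11.3%). The same shares were not taken over the 2803 tested genes below 5 CPM, so these percents describe the set and support nothing further. The 5 with the smallest p were Gm8300, Zscan4f, Gm6494, Gm2035 and Gm12800. Gm8300 went from 2.82 and 4.52 to 151 and 131 CPM in tbGFP-negative cells and lay between 5650 and 6960 CPM in tbGFP-positive cells throughout. Gm6494 also fell in tbGFP-positive cells, from 3510 and 3740 to 1290 and 1600 CPM, and rose in tbGFP-negative cells from 0.806 and 1.59 to 24.1 and 22.8 CPM.

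For most of these genes the gain of tbGFP-negative cells was a small share of the tbGFP-positive level, though the share varied between genes. Expressed as a percent of the mean tbGFP-positive level at 24 h, the gain was 1.85% to 2.86% (median 2.15%) over the 9 tested Zscan4 genes and pseudogenes. It was 2.14% at the median of the 212 genes (quartiles 1.46% and 3.60%, range 0.717% to 121%), of which 51 lay within the Zscan4 range, 89 below it and 72 above it. Of the 37 baseline-expressed negative genes, 7 lay within the Zscan4 range and 30 above it, with a median of 21.5% and a highest value of 99.4%. The 7 include Zscan4a, Zscan4c, Zscan4d, Zscan4-ps2 and Zscan4-ps3, which are among the 9 genes that set the range. Zscan4f is likewise among the 212, so these genes lie within the range by construction. The part of tbGFP-positive cells in the tbGFP-negative gate, or of cells on their way into or out of the state, was not tested.

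**Figure D1:**
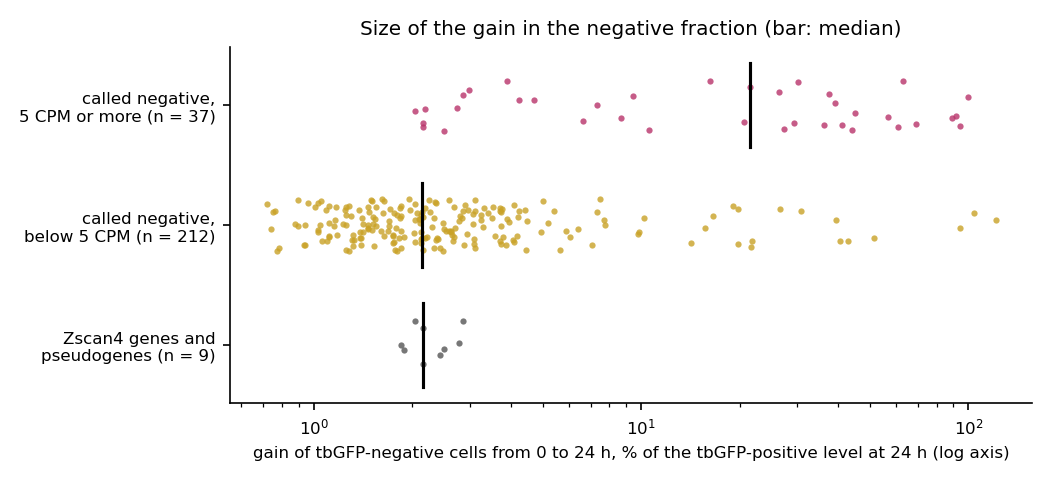
Gain in mean level of tbGFP-negative cells from 0 to 24 h, as a percent of the mean level in tbGFP-positive cells at 24 h (log axis), 1 point per gene; bars mark medians and the height within a row is random. The 9 Zscan4 genes lie between 1.85% and 2.86%, the 212 called genes below 5 CPM have a median of 2.14% and spread from 0.717% to 121%, and 30 of the 37 baseline-expressed genes lie above the Zscan4 range. Zscan4 genes that were called appear again in the rows of called genes.

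Stress genes stood among the negative genes whose gain was well above that range. Hspa1b, an inducible HSP70 chaperone, was at 8.46 and 6.11 CPM in tbGFP-negative cells at 0 h and at 35.8 and 38.6 CPM at 24 h. The tbGFP-positive libraries had 147 and 108 CPM and then 106 and 92.7 CPM. It rose in the former, did not pass in the latter, and remained lower in tbGFP-negative cells with no overlap. The fraction-dependent change was -2.78 ± 0.33 (adjusted p = 0.000266 by edgeR's quasi-likelihood F test). Its twin Hspa1a, lower at 1.61 and 2.08 CPM in tbGFP-negative cells at 0 h, gave -2.76 ± 0.62 (adjusted p = 0.0316 by edgeR), a call lost in 6 of 18 alternatives. Hspa1a passed the count filter through tbGFP-positive cells alone, so its call is a description and supports nothing further. Hspa1a and Hspa1b are near-identical copies and may share reads. They were 2 of 18 tested heat shock genes called, with a list median of 0.03. The other 16, among them Hspa8 (0.32), Hsph1 (-0.18) and Dnajb1 (1.49), did not pass.

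Plk2 and Btg2, the first a polo-like kinase and the second an antiproliferative factor, are targets of p53 and respond to growth signals too. Plk2 went from 29.4 and 33.7 to 222 and 226 CPM in tbGFP-negative cells and from 168 and 146 to 294 and 336 CPM in tbGFP-positive cells. It rose in both, and the log2 gap shrank from 2.30 to 0.49. The fraction-dependent change was -1.81 ± 0.22 (adjusted p = 0.00031 by edgeR). Btg2 went from 79 and 69.1 to 410 and 404 CPM in tbGFP-negative cells and from 351 and 304 to 655 and 517 CPM in tbGFP-positive cells, with a value of -1.63 ± 0.22 (adjusted p = 0.000612). At 24 h neither gene's fractions overlapped. Both calls were lost when the 6 h libraries joined the fit (adjusted p = 0.382 for Plk2 and 0.075 for Btg2, with log2 values of -1.84 and -1.65).

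These 2 were the called members of 20 tested p53 targets, whose median was -0.23. Within the fractions, 9 members rose in tbGFP-negative and 6 in tbGFP-positive cells, and 0 fell in either by edgeR (1 in tbGFP-negative and 0 in tbGFP-positive cells at an unadjusted p under 0.05). Perp, which encodes a membrane protein that promotes apoptosis, rose by 3.35 in tbGFP-negative and 2.98 in tbGFP-positive cells on the log2 scale, and its difference of -0.38 did not pass. Mdm2, the ubiquitin ligase of p53, rose by 1.74 and 1.4, and its difference of -0.34 did not pass either. Cdkn1a, Atf3 and Egr1 were not tested, since they missed the count limit.

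Windows of Hspa1b, Plk2, Btg2 and Chac1 are shown because these are named stress genes with values in opposite directions. Hspa1b lies at chr17:34959189-34959488 (minus strand), Plk2 at chr13:110394794-110395093 (plus), Btg2 at chr1:134079106-134079405 (minus) and Chac1 at chr2:119350992-119351291 (plus). Capitals mark GAANNTTC, the core of a heat shock element, in Hspa1b, TGACGTCA, a cAMP response element, in Plk2 and Btg2, and TGATGNAA, the core of an amino acid response element, in Chac1, on either strand.
Hspa1b: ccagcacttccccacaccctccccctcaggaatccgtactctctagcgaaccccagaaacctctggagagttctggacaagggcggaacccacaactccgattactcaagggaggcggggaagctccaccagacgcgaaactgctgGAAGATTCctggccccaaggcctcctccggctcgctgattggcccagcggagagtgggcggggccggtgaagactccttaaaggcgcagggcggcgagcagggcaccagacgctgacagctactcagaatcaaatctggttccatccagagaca
Plk2: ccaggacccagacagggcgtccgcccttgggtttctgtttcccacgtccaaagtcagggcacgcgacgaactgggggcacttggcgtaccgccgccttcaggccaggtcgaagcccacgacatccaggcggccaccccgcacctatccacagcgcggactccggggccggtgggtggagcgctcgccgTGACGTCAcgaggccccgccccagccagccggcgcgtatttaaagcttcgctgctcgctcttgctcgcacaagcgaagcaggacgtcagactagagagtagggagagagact
Btg2: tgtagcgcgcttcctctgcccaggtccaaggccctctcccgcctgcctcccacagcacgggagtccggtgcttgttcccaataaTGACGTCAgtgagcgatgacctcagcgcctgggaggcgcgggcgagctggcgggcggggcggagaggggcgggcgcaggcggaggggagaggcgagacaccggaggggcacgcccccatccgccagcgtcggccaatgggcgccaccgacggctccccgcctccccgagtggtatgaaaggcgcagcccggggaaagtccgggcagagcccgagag
Chac1: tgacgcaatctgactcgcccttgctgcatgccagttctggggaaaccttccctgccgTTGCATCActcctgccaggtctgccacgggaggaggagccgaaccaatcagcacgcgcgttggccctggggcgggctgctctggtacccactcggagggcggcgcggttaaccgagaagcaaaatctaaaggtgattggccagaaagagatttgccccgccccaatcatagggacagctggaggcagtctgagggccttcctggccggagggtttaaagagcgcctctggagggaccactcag
GAANNTTC is held by 7.86% of all windows and 5.82% of those of tested genes, TGACGTCA by 1.79% and 3.48%, and TGATGNAA by 3.97% and 2.42%. No marked match overlaps another of these motifs. Of the 30 windows of baseline-expressed negative genes, 2 held GAANNTTC, 2 held TGACGTCA and 0 held TGATGNAA, against 2, 1 and 1 of the 13 windows of positive genes. A match describes letters in the window and is not evidence of binding.

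**Figure D2:**
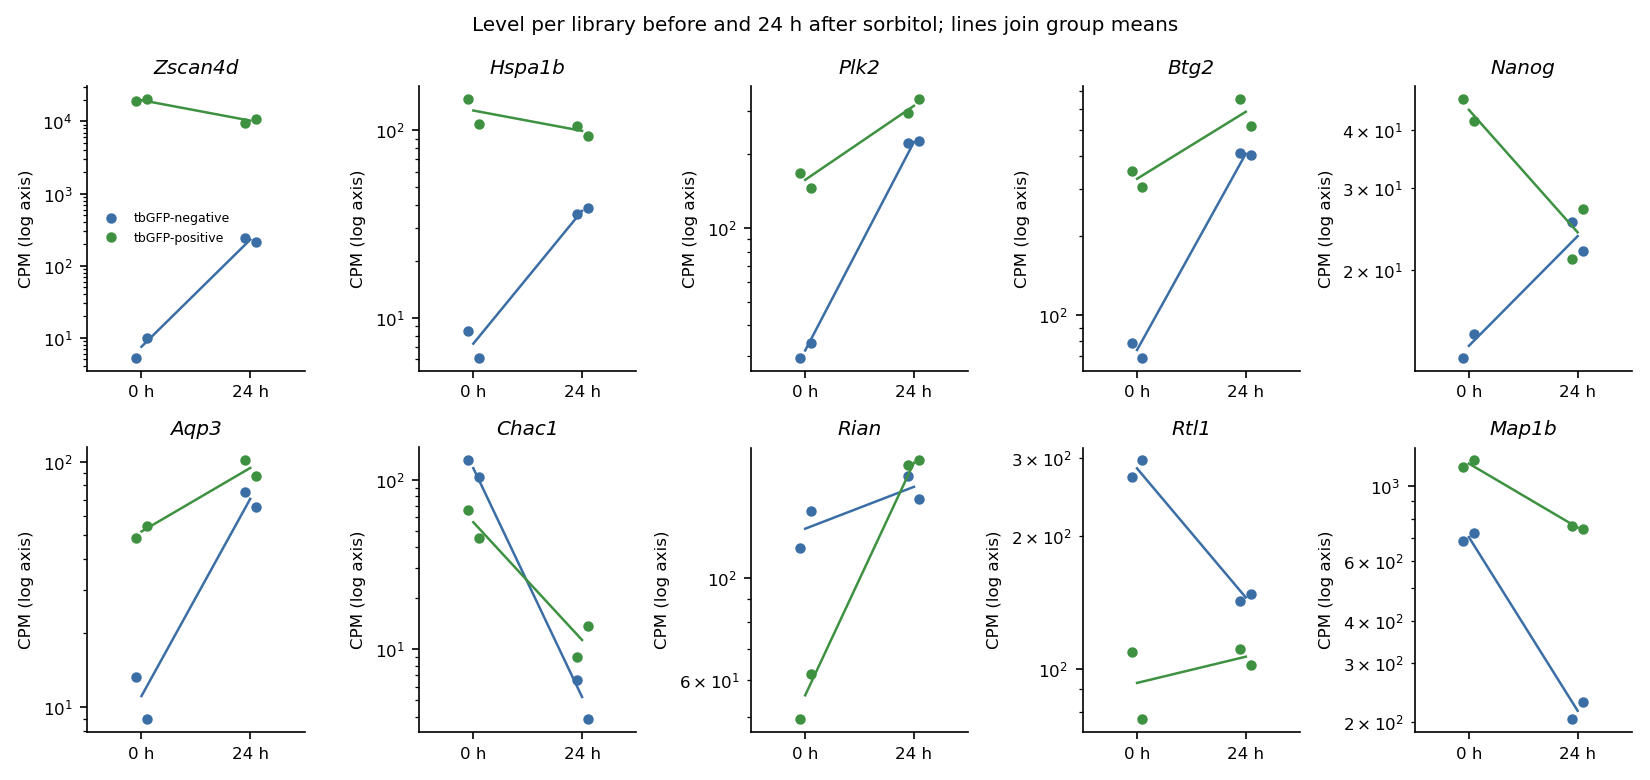
Level in CPM (log axis, scaled per panel) of 10 genes in each of the 8 libraries at 0 h and 24 h, with tbGFP-negative cells in blue and tbGFP-positive cells in green; lines join the means of the 2 libraries. The blue lines of Zscan4d, Hspa1b, Plk2, Btg2 and Aqp3 climb more steeply than the green ones, and those of Chac1, Rtl1 and Map1b drop more steeply.

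The osmotic response list had 15 tested genes, a median of -0.14 and 2 negative calls, Hspa1b and Aqp3. Aqp3, a channel for water and glycerol, went from 13.3 and 8.92 to 75.3 and 65.6 CPM in tbGFP-negative cells and from 49 and 54.8 to 101 and 87.3 CPM in tbGFP-positive cells. It rose in both fractions, and the fractions did not overlap at 24 h, but their gap of 0.42 on the log2 scale no longer passed (adjusted p = 0.255). The fraction-dependent change was -1.88 ± 0.33 (adjusted p = 0.00539 by edgeR). That call was lost in 3 of 18 alternatives, namely with the 6 h libraries in the fit (adjusted p = 0.545), with thinned counts (0.0624) and without t0_tbGFPneg replicate 2 (0.112). Slc5a3, the sodium/myo-inositol cotransporter, rose in both fractions by 3.48 and 2.86 and had a difference of -0.62 ± 0.32 (adjusted p = 0.50), and Akr1b3, the aldose reductase that makes sorbitol from glucose, rose by 1.55 and 1.28 (difference -0.27 ± 0.30, adjusted p = 0.795). Slc38a2, an amino acid transporter, rose by 0.49 in tbGFP-negative and 1.04 in tbGFP-positive cells (difference 0.55 ± 0.18, adjusted p = 0.194), and the taurine transporter Slc6a6 passed in neither. Without t0_tbGFPneg replicate 1 and t0_tbGFPpos replicate 2, Slc5a3 had -0.95 and Slc38a2 0.81. That omission was chosen after seeing the data and left 1 library in each 0 h group.

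Several signalling and membrane genes reached the tbGFP-positive level, or nearly so, at 24 h; those outside the lists were picked with their values known. Stard8 went from 28.6 and 36.8 to 250 and 253 CPM in tbGFP-negative cells and from 97.9 and 97.5 to 257 and 184 CPM in tbGFP-positive cells, so that the fractions overlapped at 24 h (-1.75 ± 0.26, adjusted p = 0.00182 by edgeR). Sdc4, a heparan sulfate proteoglycan of the cell surface, rose in both fractions, from 56 and 68.3 to 524 and 521 CPM and from 137 and 103 to 541 and 461 CPM (-0.99 ± 0.23, adjusted p = 0.0426). B2m, the light chain of class I histocompatibility molecules, went from 9.67 and 10.3 to 32.7 and 34.8 CPM in tbGFP-negative cells and stayed between 29.2 and 36.5 CPM in tbGFP-positive cells. Erbb3, a neuregulin receptor, rose from 186 and 193 to 360 and 383 CPM in tbGFP-negative cells and stayed between 417 and 524 CPM in tbGFP-positive cells. Their gaps at 24 h were -0.19, -0.06, 0.03 and 0.32 on the log2 scale, and none passed. The fraction-dependent calls held in 18 of 18 alternatives for Stard8, 10 for Sdc4, 8 for B2m and 13 for Erbb3.

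Other genes rose in tbGFP-negative cells and remained far below tbGFP-positive cells. Arap2, a GTPase-activating protein for Arf proteins, went from 11.7 and 20 to 78.5 and 66.7 CPM against 178 to 221 CPM in tbGFP-positive cells (-2.15 ± 0.30, adjusted p = 0.00103 by edgeR). Scamp1, a secretory carrier membrane protein, and Arhgef26, a guanine nucleotide exchange factor, had values of -2.04 ± 0.24 and -2.03 ± 0.25, with log2 gaps at 24 h of 3.02 and 3.23. Ddit4l, an inhibitor of mTORC1 signalling, and Pramel7, both of the 2-cell program list, had -1.68 and -1.48, and Ddit4l rose in tbGFP-negative cells from 8.87 and 6.47 to 30.7 and 32.7 CPM. The Ddit4l call was lost without t0_tbGFPneg replicate 2 (adjusted p = 0.0967), and that of Pramel7 in 9 of 18 alternatives. The antisense transcript C130013H08Rik had -2.76 ± 0.37 but overlaps Prmt6. The counting is not stated to use strand, so reads of the 2 cannot be told apart.

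Nanog, a core pluripotency factor, was higher in the tbGFP-positive fraction before sorbitol and level at 24 h. Its values were 12.9 and 14.5 CPM in tbGFP-negative and 46.6 and 41.7 CPM in tbGFP-positive cells at 0 h, and 25.3 and 21.9 against 21.1 and 27 CPM at 24 h. The groups did not overlap at 0 h and did at 24 h. The fraction-dependent change was -1.64 ± 0.37 (adjusted p = 0.0334 by edgeR), while neither the change of 0.77 in tbGFP-negative (adjusted p = 0.0766) nor that of -0.87 in tbGFP-positive cells (adjusted p = 0.0689) passed alone. The call was lost in 8 of 18 alternatives, among them the omission of any 1 of the t0_tbGFPneg, t24_tbGFPneg or t24_tbGFPpos libraries (adjusted p from 0.0602 to 0.175). The other 9 tested core pluripotency genes did not pass: Pou5f1 had 0.65 ± 0.34 and Sox2 -0.30 ± 0.21. Of 15 tested naive pluripotency genes 0 were called by edgeR (3 at an unadjusted p under 0.05, 1 by DESeq2; median -0.19), with Klf4 at -0.45, Esrrb at -0.19, and Zfp42 at -0.40. The receptor gene Lifr was lower in tbGFP-positive cells at both times, with log2 gaps of -0.97 and -1.0, and its difference was -0.04 ± 0.20 (adjusted p = 0.974).

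Ythdc1, which encodes a nuclear reader of methylated adenosine in RNA and was chosen after its values were seen, changed in opposite directions. It went from 21.8 and 36.9 to 52.3 and 57.4 CPM in tbGFP-negative cells (log2 change 0.85 ± 0.26, adjusted p = 0.0444) and from 99.5 and 126 to 48 and 67.4 CPM in tbGFP-positive cells (-0.96 ± 0.25, adjusted p = 0.046). The fractions did not overlap at 0 h and did at 24 h, and the difference was -1.82 ± 0.36 (adjusted p = 0.0146 by edgeR). Its call was lost in 4 of 18 alternatives. With Zscan4d and Zscan4-ps2 it was 1 of 3 baseline-expressed genes with opposite calls in the fractions. A further 26 such genes lay below 5 CPM.

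Among early-response genes, Btg1, an antiproliferative relative of Btg2, was the 1 call of 11 tested (median -0.38). It went from 58 and 54.7 to 114 and 103 CPM in tbGFP-negative cells and from 189 and 163 to 124 and 154 CPM in tbGFP-positive cells (-1.29 ± 0.24, adjusted p = 0.00925 by edgeR). The Btg1 call was lost in 3 of 18 alternatives, among them the omission of t0_tbGFPneg replicate 2 (0.112) or t24_tbGFPneg replicate 1 (0.0709). Fos, a subunit of AP-1, rose in tbGFP-negative cells from 17.7 and 11.4 to 64.4 and 60 CPM and lay between 25.6 and 63 CPM in tbGFP-positive cells. Its difference of -1.82 ± 0.50 missed the threshold (adjusted p = 0.0889 by edgeR). The difference of Fos was -2.55 without t0_tbGFPneg replicate 1 and t0_tbGFPpos replicate 2, which left 1 library in each 0 h group. Jun, its partner, had -0.26 ± 0.38.

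Of the 18 positive baseline-expressed genes, 5 fell in both fractions, 9 fell in tbGFP-negative cells and passed in neither direction in tbGFP-positive cells, and 3 rose in tbGFP-positive cells. Chac1, which degrades glutathione and is a target of the stress factor ATF4, dropped from 130 and 104 to 6.6 and 3.85 CPM in tbGFP-negative cells. In tbGFP-positive cells it dropped from 66.7 and 45.6 to 8.97 and 13.7 CPM. It fell in both, and the order of the fractions turned over without overlap, from a log2 gap of -1.05 to one of 1.11. The fraction-dependent change was 2.16 ± 0.44 (adjusted p = 0.0165 by edgeR), a call lost in 6 of 18 alternatives, among them the omission of t0_tbGFPneg replicate 1 or 2, t24_tbGFPneg replicate 2 or t24_tbGFPpos replicate 2 (adjusted p from 0.0771 to 0.145).

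The other ATF4 targets, which serve amino acid supply and the unfolded protein response, did not pass singly. Of 18 tested, Chac1 included, 15 had a positive sign, against 47.9% of all tested and 55.1% of baseline-expressed genes, and the median was 0.65. Of the 18, 16 were baseline-expressed, with a median of 0.69 against 0.06 over all such genes. In tbGFP-negative cells 11 fell and 1 rose, and in tbGFP-positive cells 6 fell and 1 rose. Summed over the list, tbGFP-negative cells went from 2850 and 2750 to 1410 and 1470 CPM, and tbGFP-positive cells from 3090 and 2200 to 2600 and 2110 CPM, so the latter overlapped between times. Trib3, a pseudokinase, fell from 103 and 126 to 33.2 and 27.7 CPM in tbGFP-negative cells, and its difference was 1.30 ± 0.33 (adjusted p = 0.059). The cystine transporter gene Slc7a11 had 2.26 ± 0.78 (adjusted p = 0.22) at 14.5 CPM or less in every library, and the asparagine synthetase gene Asns had -0.05 ± 1.16. Hmox1, the heme oxygenase gene of the NRF2 list, fell in both fractions, from 191 and 171 to 60.1 and 61.2 CPM and from 164 and 166 to 96.2 and 97.1 CPM (0.80 ± 0.21, adjusted p = 0.0784). Of the 21 tested genes of that list, Srxn1 and Txnrd1 included, 0 were called by edgeR and 0 by DESeq2, and 5 had an unadjusted p under 0.05.

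**Figure D3:**
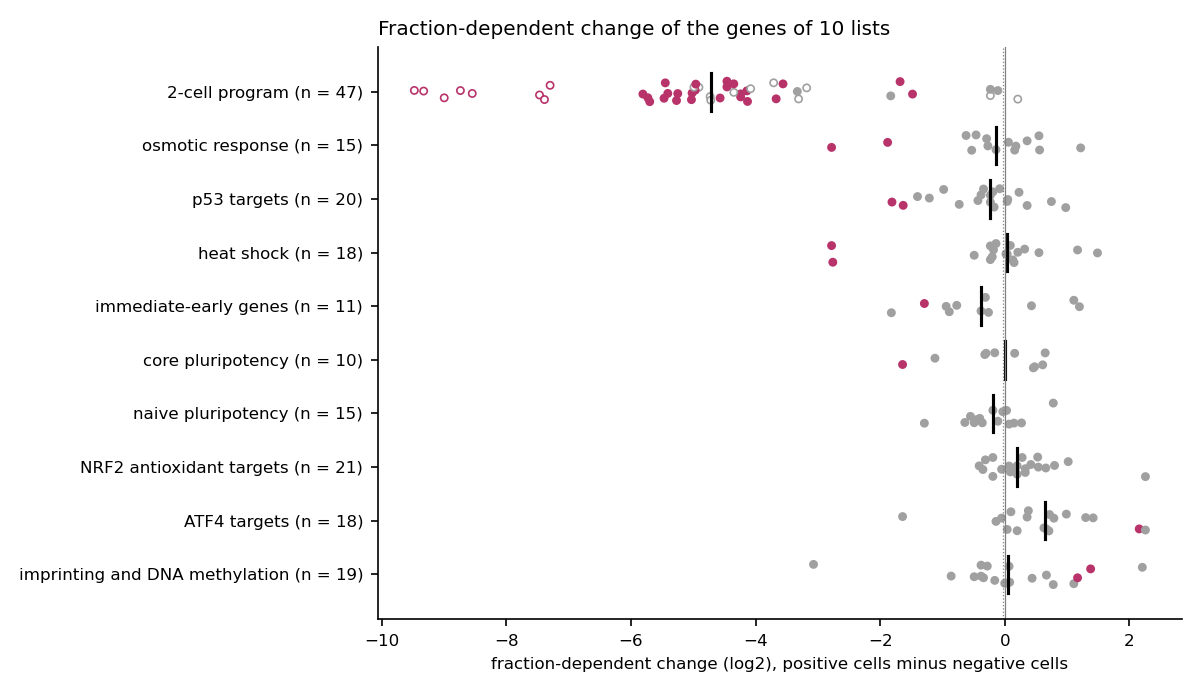
Fraction-dependent change on the log2 scale of each tested gene in 10 gene lists, with called genes in red, others in grey, and list medians as bars; the dotted line is the median of all genes, -0.03, and height within a row is random. Open circles are genes with no count in tbGFP-negative cells at 0 h, whose fitted values depend on the small count that the fit adds. The 2-cell program centres on -4.72 and the ATF4 targets on 0.65.

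Gpt2, an alanine aminotransferase of mitochondria, and Emb, a cell adhesion glycoprotein, also fell in both fractions and further in tbGFP-negative cells, with differences of 1.33 ± 0.32 and 0.97 ± 0.23 and calls that held in 8 and 9 of 18 alternatives. Map1b, a microtubule-associated protein, was the 1 positive baseline-expressed call kept in all 18 alternatives. It went from 688 and 724 to 204 and 229 CPM in tbGFP-negative cells and from 1140 and 1190 to 761 and 746 CPM in tbGFP-positive cells. The fractions never overlapped, and the log2 gap widened from 0.73 to 1.80 (difference 1.07 ± 0.17, adjusted p = 0.00252 by edgeR). Gas5, a noncoding host of small nucleolar RNAs, rose in both and more in tbGFP-positive cells, from 51 and 52.2 to 194 and 179 CPM against 75.4 and 79.4 to 138 and 129 CPM (1.07 ± 0.22, adjusted p = 0.019), a call that held in 11 of 18.

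Efnb2, Ripply1 and Slfn9 were further positive genes that fell in tbGFP-negative cells. Efnb2, a ligand of Eph receptors, dropped from 97.5 and 91.5 to 24.2 and 24.4 CPM there and went from 67.7 and 44.3 to 40.4 and 36.8 CPM in tbGFP-positive cells (1.41 ± 0.32, adjusted p = 0.0356 by edgeR). Ripply1, a transcriptional corepressor, dropped from 81.4 and 64.5 to 15.8 and 16.9 CPM there and went from 40.6 and 48.6 to 27.7 and 32.8 CPM in tbGFP-positive cells (1.59 ± 0.33, adjusted p = 0.019). Slfn9, a Schlafen gene, fell in both fractions, from 85 and 92.5 to 11.2 and 9.69 CPM and from 40.6 and 34.3 to 12.5 and 22 CPM (1.97 ± 0.39, adjusted p = 0.014). Fam98b, of the tRNA ligase complex, had 1.48 and Lrp2, the endocytic receptor megalin, 0.78. Znf41-ps had 1.86, Zfp991 1.51 and Gm12184, which overlaps Trim7, 1.67. Ceacam20, an adhesion molecule gene, had 2.55 ± 0.54 (adjusted p = 0.0223) with neither arm passing alone. The calls of these 9 genes held in 9 to 12 of 18 alternatives each.

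The largest fitted positive values rest on few counts. Gm39363, a predicted gene, had 3 counts in both t0_tbGFPpos libraries together and 71 at 24 h, a ratio of 17.8 with a 95% counting interval from 5.85 to 88.4, and 5.64 and 6.6 CPM in tbGFP-negative cells at 0 h against 3.57 and 1.73 CPM at 24 h. Its fitted difference of 5.32 depends on the small count that the fit adds, and the call held in 11 of 16 alternatives. Below 5 CPM, Gm16199, which overlaps Wnk1, went from 2 to 59 counts in tbGFP-positive cells (ratio 22.2, interval from 5.88 to 188), and Vat1l, Mir1193, Cyth1 and Snord7 followed without passing (adjusted p from 0.0884 to 0.189). Gm39363 and Gm16199 passed the count filter through tbGFP-negative cells alone, so their calls are a description and support nothing further.

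A pair of imprinted transcripts of the Dlk1-Dio3 region on chromosome 12 were the calls among 19 tested genes of imprinting and DNA methylation, whose median was 0.05. Rian, a maternally expressed noncoding RNA that hosts small nucleolar RNAs, stood at 116 and 139 CPM in tbGFP-negative cells and 49.4 and 62 CPM in tbGFP-positive cells before sorbitol, and had 166 and 148 against 175 and 179 CPM at 24 h. It rose in tbGFP-positive cells, and the gap of -1.21 at 0 h became one of 0.17 that did not pass (1.38 ± 0.24, adjusted p = 0.00542 by edgeR). The call was lost without t0_tbGFPneg replicate 2 (adjusted p = 0.0846) or t24_tbGFPneg replicate 2 (0.0594). Rtl1, a paternally expressed gene of retrotransposon origin needed in the placenta, fell in tbGFP-negative cells from 272 and 296 to 142 and 148 CPM and lay between 76.8 and 111 CPM in tbGFP-positive cells (1.17 ± 0.24, adjusted p = 0.0201). The Rtl1 call was lost in 8 of 18 alternatives, among them the omission of any 1 of the t0_tbGFPneg, t24_tbGFPneg or t24_tbGFPpos libraries, with an adjusted p of 0.0618 to 0.204 over the 8. From Meg3 to Mirg (chr12:109541001-109749460), 17 genes were tested, 15 had a positive sign, and the median was 1.15. Over all tested genes, 47.9% had a positive sign and the median was -0.03. Transcripts of the stretch overlap, so the genes are not separate measurements. Mir1193 among them passed the count filter through tbGFP-negative cells alone, with 2 counts in both t0_tbGFPpos libraries together. The signs thus describe the stretch and support nothing further. Meg3 fell in tbGFP-negative cells, and its fraction-dependent change of 0.78 did not pass (adjusted p = 0.128 by edgeR). Mirg passed in neither fraction, and its fraction-dependent change of 1.11 did not pass either (adjusted p = 0.113 by edgeR). Zfp57, a guardian of imprints, had -0.38 ± 0.26.

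In 20 of the lists, 0 of 293 tested genes were called by edgeR, with 30 at an unadjusted p under 0.05 and 6 called by DESeq2. These lists cover naive and formative or primed pluripotency, LIF and STAT3 signalling, FGF and ERK signalling, NRF2 targets, ATR and DNA repair, S phase, G2 and M phase, repressors of the 2-cell program, cholesterol synthesis, glycolysis and hypoxia, ribosome biogenesis, splicing factors, mitochondrial mRNAs, apoptosis genes and the markers of other cell types. Atr and Chek1, kinases of the replication checkpoint, had -0.33 ± 0.43 and -0.65 ± 0.88.

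Values at 6 h, scaled over all 12 libraries and not part of the test, give the levels in between. Zscan4d was at 4.85 and 9.09 CPM at 0 h, 18.3 and 15.6 CPM at 6 h and 233 and 205 CPM at 24 h in tbGFP-negative cells. Hspa1b was highest at 6 h there, at 100 and 103 CPM, against 7.84 and 5.68 CPM at 0 h and 34.2 and 36.9 CPM at 24 h. Chac1 had dropped from 121 and 96.4 CPM to 19.8 and 20.4 CPM by 6 h and stood at 6.31 and 3.68 CPM at 24 h.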

How the data were processed

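RNA was sequenced from 12 samples, of which the 8 at 0 and 24 h, 2 per group by GEO's labels, entered the fit. Total RNA (120 ng) went into stranded libraries, per the labels' protocols. The authors' tools were FastQC, HISAT2 (mm10), featureCounts and DESeq2, per the submitters' processing notes, with versions, strand setting and the treatment of reads shared by transcripts not given in the sources used here. Each deposited file gives unnormalised read counts by Ensembl transcript. Levels of different genes are not compared. Counts were summed per gene with GENCODE M21 after the version was removed: 141536 of 142446 transcripts matched, and the rest, 0.0606% to 0.0903% of counts, were left out. All columns mapped to samples (0 not mapped). In the shallowest library 3 counts are 1.30 CPM.

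The test was edgeR 4.0.16 (R 4.3.3) quasi-likelihood with robust estimation, TMM factors, 1 mean per group and Benjamini-Hochberg adjustment over 11297 genes at 0.05. The coefficient of variation was 21.6%. CPM are scaled by TMM factors. At an unadjusted p under 0.05 there were 1312 genes. On simulated data (11297 genes, 200 changed), the test called 12% of genes changed 2-fold and 71% of those changed 4-fold, with 2 false among 85 calls. The simulation gave each gene its mean over the 8 libraries in every group and changed only genes with a mean of at least 5 CPM. It held no gap between fractions at 0 h, so these rates do not describe genes near 0 in 1 fraction.

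Named genes are, for baseline-expressed genes, the 10 largest called values in each direction; below 5 CPM, the 5 smallest p in each; a panel of 38 genes; and called list members. Other baseline-expressed calls were named after their values were seen. The members and lists were chosen with earlier results of these data known. Alternatives were all 12 libraries, other factors, DESeq2 1.42.0, other filters, thinned counts, a replicate block and each library left out. Correlations of same-numbered deviations ran from -0.0164 to 0.109, so the numbers were not taken to pair samples.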

Additional observations from a re-analysis of the deposited data

Results flagged for a closer look

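Changes from 0 to 24 h that differed between tbGFP-positive and tbGFP-negative cells, by a test of the difference itself (edgeR's quasi-likelihood F test), numbered 19 positive and 249 negative over all tested genes, and 18 positive and 37 negative among baseline-expressed genes. The genes Ythdc1 (-1.82), Zscan4d (-5.73) and Zscan4-ps2 (-4.98, log2 difference) also had opposite calls in the fractions, with a rise in tbGFP-negative and a fall in tbGFP-positive cells. Groups of 2 libraries were too small to look for single libraries far from the others.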

How the results depend on the processing

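With 2 libraries per group, few calls held everywhere: 1 of 18 positive and 13 of 37 negative baseline-expressed calls were kept in all 18 alternatives. Counts below are given in the order all positive, all negative, baseline-expressed positive and baseline-expressed negative, where they moved by over 1.5 times.

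With all 12 libraries the counts were 4 for all positive, 4 for baseline-expressed positive and 19 for baseline-expressed negative; changes in tbGFP-positive cells numbered 113 and in tbGFP-negative cells 843. DESeq2 gave 38 positive (38 baseline-expressed), 63 baseline-expressed negative and 853 changes in tbGFP-positive cells. Without the count filter there were 61, 386, 58 and 60, and 1011 changes in tbGFP-positive cells. Counts thinned to the smallest library gave 7, 153, 7 and 24, with 350 and 992 changes in tbGFP-positive and tbGFP-negative cells. A baseline of at least 10 CPM left 22 negative genes, without any Zscan4 gene, one of at least 2 CPM 59, and a mean of 5 CPM over the 8 libraries 249. The cause was not tested. Over both t0_tbGFPneg libraries 3 counts are 0.281 CPM, which limits any fold against genes at 0 there.

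With the replicate number as a block, calls were 40 positive, of which 39 baseline-expressed, 58 baseline-expressed negative and 918 changes in tbGFP-positive cells; the numbers share only a label, so the block is no pairing.

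Leaving out 1 library at a time gave 1 to 441 positive and 95 to 493 negative calls, 1 to 403 and 12 to 169 among baseline-expressed genes, 86 to 1949 changes in tbGFP-positive and 687 to 2484 in tbGFP-negative cells, and a 2-cell list median of -5.76 to -4.44. Leaving out both t0_tbGFPneg replicate 1 and t0_tbGFPpos replicate 2, chosen after seeing the data, left 1 library in each 0 h group. The 2-cell list median was then -4.58.

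No called named gene changed sign. Uncalled genes that did were Slc6a6 (-0.14 when thinned and -0.14 without those 2 libraries), Jun (0.12 when thinned), Lifr (0.14) and Asns (0.39) without those 2 libraries, and, over single omissions, Asns (-2.09 to 0.81), Chek1 (-2.10 to 0.03), Esrrb (-0.54 to 0.27), Jun (-0.57 to 0.11), Lifr (-0.16 to 0.10), Slc6a6 (-0.11 to 0.25) and Txnrd1 (-0.59 to 0.32).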

Other observations

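Of the 18 positive baseline-expressed genes, Znf41-ps, Zfp991 and Gm13147 lie within 1 stretch of chromosome 4 (chr4:145825237-147259338) that holds a cluster of zinc finger genes; the stretch was chosen after the values were seen. In tbGFP-negative cells all 3 fell: Znf41-ps from 88.7 and 73.1 to 23.8 and 15.5 CPM, Zfp991 from 154 and 130 to 69.5 and 42.4 CPM and Gm13147 from 156 and 129 to 93.9 and 74.2 CPM. In tbGFP-positive cells none of them passed. Of 26 tested genes in the stretch, 3 were called positive, against 0.168% of all tested genes. The called genes Znf41-ps and Gm13147 set its ends, so this count is a description and supports nothing further. In the stretch 13 genes had a positive sign and the median was -0.01, so a positive fraction-dependent change was not shared by the stretch as a whole. The Gm13147 call held in 8 of 18 alternatives. Genes of this cluster are near copies, and their shares of reads are uncertain.

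In Slc38a9, which encodes a lysosomal arginine sensor, and Rimbp3, both tbGFP-negative libraries ended above both tbGFP-positive libraries. Among the negative genes, Stard8 and Sdc4 also had the higher mean in tbGFP-negative cells at 24 h, but with overlap. Slc38a9 went from 17.7 and 15.1 to 54.3 and 48.6 CPM in tbGFP-negative cells and from 34.8 and 30.7 to 42.6 and 31.9 CPM in tbGFP-positive cells, and Rimbp3 from 14.1 and 14.7 to 50 and 54.8 CPM against 30.6 and 33 to 43.2 and 42.2 CPM. The gaps of Slc38a9 and Rimbp3 at 24 h, -0.47 and -0.29 on the log2 scale, did not pass. Their fraction-dependent calls held in 9 of 18 alternatives each.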
